A study of Mus musculus with 6 samples.

Results

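The genes described here are 10 regulators and effectors of the Hippo pathway, measured among 24010 named genes in cultured mouse pancreatic buds. They were listed by name (Frmd6, Ajuba, Amotl1, Amotl2, Lats2, Yap1, Wwtr1, Tead1, Tead4 and Axl) because Frmd6 was among the largest rises under both inhibitors and the others are partners and targets in the same pathway. All 10 had a row on the array. The members were thus chosen by their intensity changes under JQ1 and I-BET151 against DMSO, and those changes are given as a description, without a test.

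RNA came from dorsal pancreatic buds of mouse embryos at stage E11.5, cultured for 24 h, with 10 buds pooled per sample and 1 sample per array. There were 3 groups of 2 arrays: buds with JQ1 at 100 nM, buds with I-BET151 at 500 nM, and control buds with 0.1% DMSO. JQ1 and I-BET151 occupy the bromodomains of BET proteins, which read acetylated histones and support transcription. Genotype and strain are not given in the sources used here, and it is not stated whether replicate pools had separate litters or culture dates. The p-values therefore cover only the variation among these pools, some of which may be technical.

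Hippo signalling is a kinase cascade that limits growth. Membrane and junction proteins such as NF2 and FERM-domain proteins promote the activity of the kinases MST and LATS, and LATS phosphorylates the co-activators YAP (Yap1) and TAZ (Wwtr1), which keeps them out of the nucleus. Unphosphorylated YAP and TAZ bind TEAD transcription factors and switch on target genes, several of which feed back on the pathway. In the pancreas the pathway is known for its role in progenitor growth and in the choice between exocrine, ductal and endocrine fates. Much of this control acts on proteins and their location, which an RNA array does not measure.

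YAP and TAZ reach many of their targets through TEAD factors, and the RefSeq promoters of the members (build GRCm38.p6, 250 bases before to 50 bases after the start of transcription) were searched for GGAATG on both strands, where the other strand reads CATTCC. Of the 10 members, 8 had a promoter in the table, with 10 start sites in all. The motif was present at 6 of these 8 genes, in 7 of the 10 promoters, of which a pair at Wwtr1 overlap and hold the same copy. Of 32851 promoters of that length, 14.7% held it. The AP-1 motif TGANTCA, which reads the same on both strands, was in none of the 10 member promoters and in 7.81% of all promoters. GC content ranged from 42.7% to 74.3% over the member promoters, against a median of 52.7% over all. The 6 sequences below are shown because they belong to the members with promoters that differed most from DMSO under JQ1, to the effector Yap1 and to the target gene Ccn1, and capitals mark each match to GGAATG or CATTCC.
Frmd6 (chr12:70825264-70825563, plus strand): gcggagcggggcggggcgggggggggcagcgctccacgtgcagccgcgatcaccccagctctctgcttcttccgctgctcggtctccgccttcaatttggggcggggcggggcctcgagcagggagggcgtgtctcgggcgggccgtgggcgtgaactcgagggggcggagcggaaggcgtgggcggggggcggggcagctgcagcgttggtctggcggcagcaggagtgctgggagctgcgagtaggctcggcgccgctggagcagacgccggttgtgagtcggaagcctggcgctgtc
Ajuba (chr14:54577612-54577911, minus strand): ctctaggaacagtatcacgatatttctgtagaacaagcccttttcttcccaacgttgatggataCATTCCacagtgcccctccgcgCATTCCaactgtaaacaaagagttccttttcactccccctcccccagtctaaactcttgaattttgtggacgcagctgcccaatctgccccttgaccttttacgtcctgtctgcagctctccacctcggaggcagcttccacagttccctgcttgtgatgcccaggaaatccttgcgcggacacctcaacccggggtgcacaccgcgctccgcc
Amotl2 (chr9:102717554-102717853, plus strand): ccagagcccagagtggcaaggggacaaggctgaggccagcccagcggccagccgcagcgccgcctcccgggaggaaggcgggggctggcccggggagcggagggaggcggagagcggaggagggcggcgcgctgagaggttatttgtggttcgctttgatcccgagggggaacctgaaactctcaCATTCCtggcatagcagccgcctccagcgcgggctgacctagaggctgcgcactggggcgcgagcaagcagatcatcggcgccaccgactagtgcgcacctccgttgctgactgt
Axl (chr7:25788684-25788983, minus strand): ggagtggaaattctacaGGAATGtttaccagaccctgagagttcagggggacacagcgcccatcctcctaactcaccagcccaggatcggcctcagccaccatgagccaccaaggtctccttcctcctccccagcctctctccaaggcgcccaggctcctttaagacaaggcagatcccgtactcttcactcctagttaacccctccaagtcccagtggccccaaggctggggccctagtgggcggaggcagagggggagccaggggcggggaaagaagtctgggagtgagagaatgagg
Yap1 (chr9:8004547-8004846, minus strand): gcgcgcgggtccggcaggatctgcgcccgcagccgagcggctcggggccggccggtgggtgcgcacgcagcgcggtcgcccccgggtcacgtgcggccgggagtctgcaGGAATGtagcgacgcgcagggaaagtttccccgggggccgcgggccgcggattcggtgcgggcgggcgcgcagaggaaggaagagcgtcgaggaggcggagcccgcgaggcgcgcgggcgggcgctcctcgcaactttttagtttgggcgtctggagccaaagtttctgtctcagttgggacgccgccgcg
Ccn1 (chr3:145649936-145650235, minus strand): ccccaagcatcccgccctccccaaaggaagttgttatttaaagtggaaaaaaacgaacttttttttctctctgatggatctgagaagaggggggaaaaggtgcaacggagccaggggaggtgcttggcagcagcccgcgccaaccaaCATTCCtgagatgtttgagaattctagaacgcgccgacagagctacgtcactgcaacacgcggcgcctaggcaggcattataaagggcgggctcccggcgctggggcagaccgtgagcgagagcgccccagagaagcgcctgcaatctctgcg
The copies lay 186 and 164 bases before the start in Ajuba, 65 in Amotl2, 233 in Axl, 141 in Yap1 and 103 in Ccn1. The Frmd6 promoter, which had the highest GC content of the members, held no match, and neither did those of the target genes Igfbp3 and Myof. A match describes these letters only and does not show that a TEAD factor binds there.

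The values are array intensities on a linear scale, normalized with RMA, with a median between 54.0 and 57.0 on each array. Arrays of 1 group correlated at 0.995 to 0.996 across genes on the log2 scale, and treated with control arrays at 0.990 to 0.993. I-BET151 with JQ1 arrays correlated at 0.995 to 0.996, about as arrays of 1 group did. The epithelial markers Epcam, Pdx1 and Sox9 were at 627 to 735, 228 to 330 and 1418 to 1650 over the 6 arrays. These lay above the array medians, while Ptf1a, in the same list, was near them at 53 to 69. Markers of some other cells in the bud were lower in treated samples. The summed intensity of 10 mesenchyme markers was 7817 to 7869 in JQ1 buds, 8269 to 8329 in I-BET151 buds and 10026 to 10158 in DMSO buds. For 9 endothelial markers the sums were 4039 to 4113, 4293 to 4632 and 5970 to 6109 in the same order. For 6 neural crest and neuron markers they were 803 to 858, 847 to 997 and 1855 to 1917. All 6 had a log2 change below 0 under both inhibitors, but by unlike amounts. Fabp7 was at 154 and 185, 191 and 317, and 795 and 829, and Sox10 at 42 and 56, 45 and 43, and 54 and 49. Epithelial markers (10) summed to 5963 to 6713, 6178 to 6207 and 6380 to 6396, mesothelial markers (7) to 2031 to 2252, 2359 to 2426 and 2318 to 2386, and macrophage markers (6) to 2445 to 2600, 2447 to 2799 and 2226 to 2439. Of the mesenchymal, endothelial and epithelial markers, those called were all lower: 3, 5 and 1 under JQ1, and 2, 2 and 0 under I-BET151. Of all genes, 2.67% and 0.870% were called lower. At an unadjusted p under 0.05 in limma's fit, in either direction, there were 7, 8 and 3 under JQ1. Under I-BET151 there were 6, 8 and 4. The shares of all genes were 21.6% and 18.9%. The mesenchyme markers did not move alike. Their log2 changes ran from -2.25 (Postn) to 0.11 (Nkx3-2) under JQ1, with 9 of 10 below 0. Under I-BET151 they ran from -1.94 to 0.29 for the same genes, with 8 of 10 below 0. In such bulk samples, fewer cells of a type and less RNA of these genes per cell cannot be told apart. The liver gene Alb stood at 43 and 753 in JQ1 buds, 35 and 421 in I-BET151 buds and 179 and 58 in DMSO buds, so pools of 1 group differed in it.

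Among the regulators at the cell membrane and junctions, Frmd6 and Ajuba were higher in all 4 treated samples than in both controls. Frmd6, also called willin, is the FERM-domain protein related to fly Expanded and is placed upstream of the kinases. Its intensity was 339 and 356 in JQ1 buds, 279 and 254 in I-BET151 buds and 152 and 144 in DMSO buds. The 3 groups did not overlap, and JQ1 buds were the highest. Means were 347.5 ± 12.0, 266.5 ± 17.7 and 148 ± 5.66 (SD, n = 2 each), which is 2.35-fold and 1.80-fold over DMSO, with log2 changes of 1.23 ± 0.08 and 0.85 ± 0.08 (SE).

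Ajuba, a LIM-domain adaptor that binds LATS kinases and restrains them, had 462 and 416 in JQ1 buds, 418 and 390 in I-BET151 buds and 336 and 311 in DMSO buds. Both treated groups lay above the controls, and they overlapped with each other. The changes were 1.36-fold under JQ1 (log2 0.44 ± 0.09) and 1.25-fold under I-BET151 (0.32 ± 0.09).

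The angiomotin-like proteins tether YAP and TAZ outside the nucleus and activate LATS, and the pair measured among the members behaved unlike each other. Amotl2, which is also a YAP target, had 222 and 237 in JQ1 buds, 205 and 197 in I-BET151 buds and 173 and 178 in DMSO buds. Its 3 groups were fully separate in the same order as for Frmd6, at 1.31-fold and 1.15-fold over DMSO (log2 0.39 ± 0.06 and 0.20 ± 0.06). Amotl1 had 603 and 638 in JQ1 buds, 622 and 612 in I-BET151 buds and 606 and 662 in DMSO buds, so the treated values lay almost wholly within the control range. Its log2 changes were -0.03 ± 0.07 and -0.04 ± 0.07. Amot, the angiomotin gene outside the list, had log2 changes of -0.04 and 0.01.

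Lats2, a kinase of the core cassette and itself a YAP target, had 223 and 212 in JQ1 buds, 218 and 202 in I-BET151 buds and 215 and 206 in DMSO buds. The groups overlapped, and the 95% intervals of the log2 change ran from -0.136 to 0.230 under JQ1 and from -0.188 to 0.179 under I-BET151.

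The co-activators also differed from each other. Yap1 had 1003 and 963 in JQ1 buds, 931 and 979 in I-BET151 buds and 956 and 1011 in DMSO buds, with overlapping groups. Its intervals ran from -0.172 to 0.171 under JQ1 and from -0.214 to 0.129 under I-BET151. Wwtr1, which encodes TAZ, had 447 and 402 in JQ1 buds, 462 and 483 in I-BET151 buds and 357 and 391 in DMSO buds. Here the I-BET151 samples were the highest, at 1.26-fold over DMSO (log2 0.34 ± 0.09), and JQ1 was at 1.13-fold (0.18 ± 0.09).

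Of the DNA-binding partners, Tead1 had 659 and 721 in JQ1 buds, 797 and 631 in I-BET151 buds and 578 and 582 in DMSO buds. All treated samples were above the controls, but the I-BET151 pair spread widely (714 ± 117, SD, n = 2), and the log2 changes of 0.25 ± 0.13 and 0.29 ± 0.13 had intervals that included 0. Tead4 was dimmer, at 97 and 102 in JQ1 buds, 82 and 99 in I-BET151 buds and 122 and 96 in DMSO buds. Its groups overlapped, with log2 changes of -0.12 ± 0.15 and -0.26 ± 0.15.

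Axl was the member whose 4 treated samples all lay below both controls. It encodes a TAM-family receptor tyrosine kinase and is a known target of YAP and TAZ. Its intensity was 685 and 708 in JQ1 buds, 775 and 749 in I-BET151 buds and 886 and 913 in DMSO buds, with the 3 groups fully separate. It stood 1.29-fold lower under JQ1 (log2 -0.37 ± 0.06) and 1.18-fold lower under I-BET151 (-0.24 ± 0.06). Mesenchymal and endothelial marker sums, given above, were also lower in treated buds, and their part in this value was not tested.

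**Figure D1:**
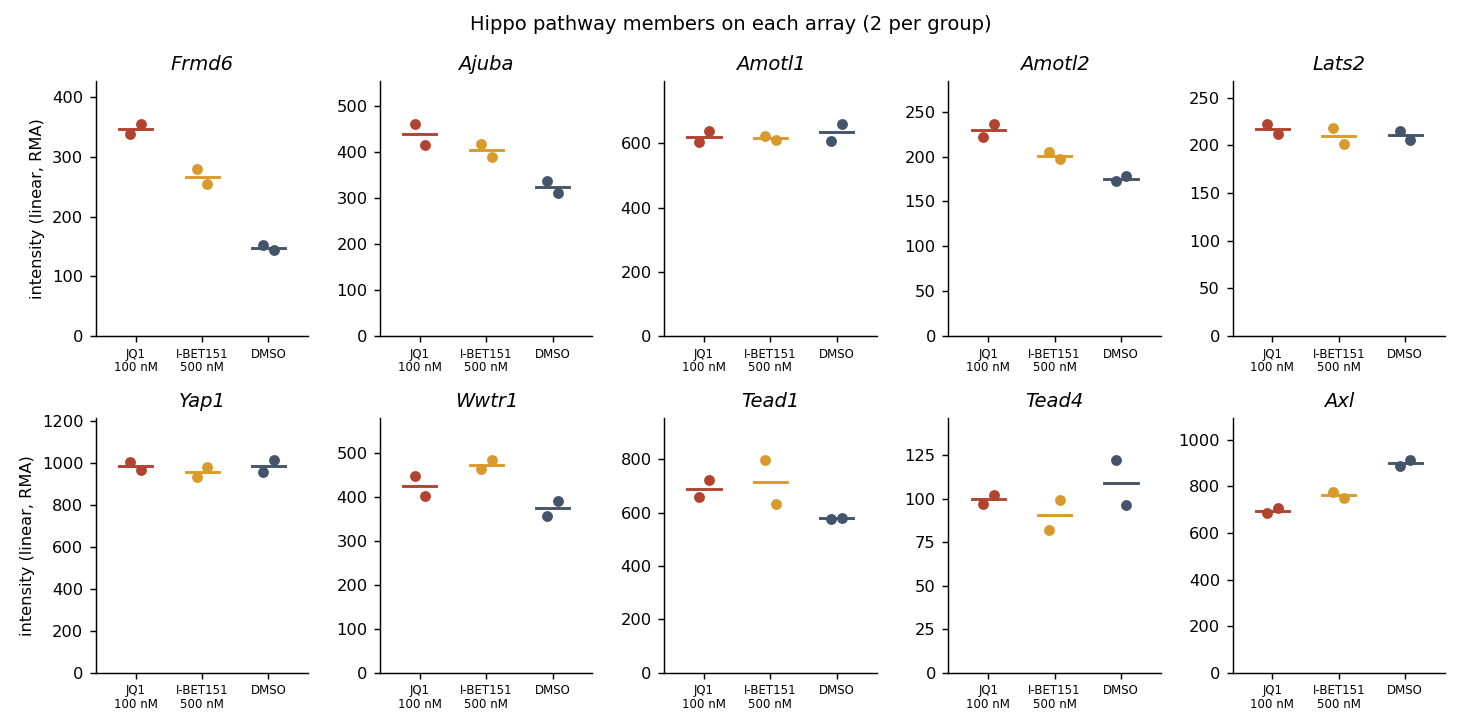
Intensity (linear scale, RMA) of the 10 members on each array, in JQ1, I-BET151 and DMSO buds; points are arrays and lines are group means of 2 arrays. Frmd6 and Amotl2 are highest in JQ1 and lowest in DMSO buds without overlap, Axl is in the opposite order, and Yap1, Lats2 and Amotl1 overlap between groups.

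Across the 10 members, the median log2 change was 0.11 under JQ1 and 0.10 under I-BET151, with ranges of -0.37 to 1.23 and -0.26 to 0.85; over all 24010 genes the medians were 0.02 and 0.00. In limma's fit over all genes, Frmd6 and Axl passed an adjusted p of 0.05 under JQ1, where 3.80% of all genes did. Axl no longer passed with each array centred on its median or with a robust prior. Frmd6 alone passed under I-BET151, where 1.13% of all genes did. Nothing is read from these counts, because these contrasts chose the members. Members whose JQ1 arrays lay wholly above the controls numbered 5, and 1 lay below, where 23.9% and 21.0% of all genes did. Under I-BET151 the counts were again 5 and 1, with 21.5% and 20.7% of all genes. Frmd6 and Amotl2 were fully ordered with JQ1 above I-BET151 above DMSO, as were 3.39% of all genes, and Axl in the opposite order, as were 4.17%. All 4 treated arrays lay above both controls for 5 members and below them for 1, as for 14.4% and 14.9% of all genes. Both comparisons share the same 2 control arrays. The size of the Frmd6 change was stable over all settings tried, with log2 changes between 1.15 and 1.30 under JQ1 and between 0.78 and 0.92 under I-BET151.

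The difference between the inhibitor groups was not used to choose the members and was tested, although it draws on the same treated arrays and the doses differ (100 nM JQ1 and 500 nM I-BET151). None of the 10 members passed in limma's fit, nor did any of the 24010 genes. At an unadjusted p under 0.05 there were 2 members, Frmd6 and Amotl2, against 6.71% of all genes. Frmd6 was higher in both JQ1 arrays than in both I-BET151 arrays, by 0.38 on the log2 scale (95% interval 0.185 to 0.583, limma adjusted p = 0.718). For Amotl2 the difference was 0.19 (0.0223 to 0.359, limma adjusted p = 0.733). The intervals of the other 8 members included 0. That of Yap1 ran from -0.129 to 0.213, that of Wwtr1 from -0.381 to 0.0685 and that of Axl from -0.282 to 0.0225. The widest was that of Tead4, from -0.258 to 0.543. A missed threshold does not show that JQ1 and I-BET151 act alike on these genes.

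**Figure D2:**
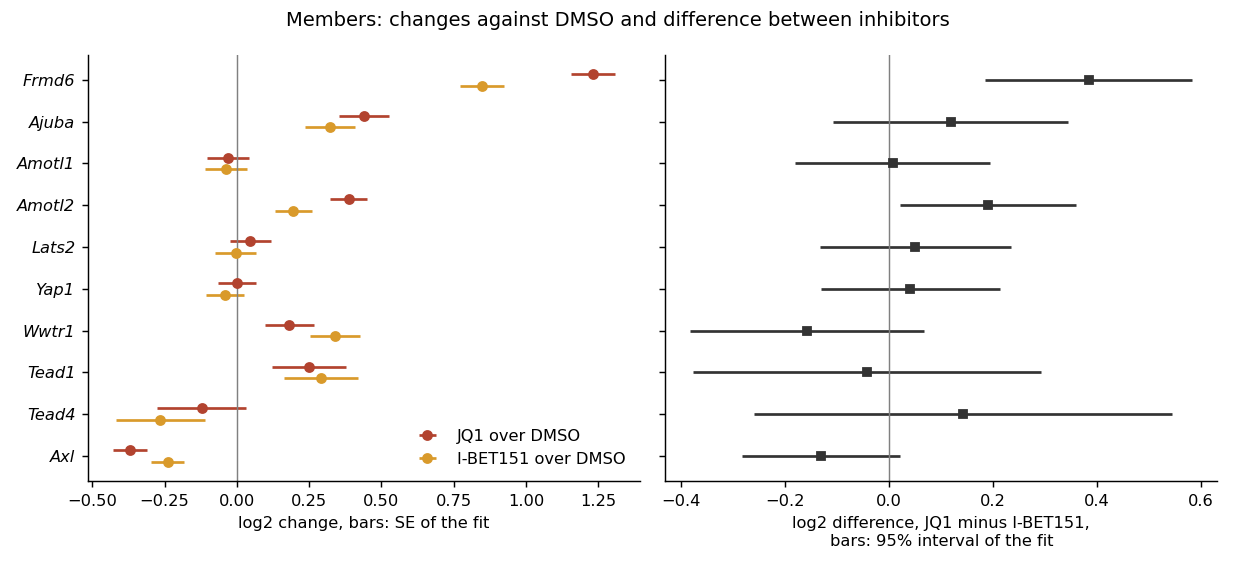
Left, log2 change of each member under JQ1 and under I-BET151 against DMSO, with bars of 1 SE from the fit; right, log2 difference of JQ1 minus I-BET151 with its 95% interval. Frmd6 has the highest change under both inhibitors, at 1.23 and 0.85, and only the intervals of Frmd6 and Amotl2 on the right do not include 0.

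The profile of Frmd6 over the 6 arrays was most like those of Mt2, H2bc8, Fgf18, Habp4 and Hexim1, by the smallest sum of squared differences in centred log2 intensity (0.0149 to 0.0971) among 12004 genes brighter than the median. Mt2, a metallothionein gene, had 1186 and 1219 in JQ1 buds, 960 and 811 in I-BET151 buds and 502 and 508 in DMSO buds. Hexim1, an inhibitor of P-TEFb and a common marker of BET inhibition, had 1263 and 1304, 982 and 1053, and 625 and 656 in the same order. Fgf18, a fibroblast growth factor gene, had 325 and 327, 259 and 250, and 138 and 165. H2bc8 and Mt2 have close relatives that the array may not separate fully. Likeness over 6 arrays is a description and was found by searching all these genes.

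The rest of the pathway was examined through lists drawn up from general knowledge of the pathway, though with earlier results of these data known: 81 of 86 listed genes had a named row. Most did not pass. Under JQ1, 1 of the 81 rose (Nuak2) and 4 fell (Igfbp3, Ccdc80, Myof and Pros1), beside 1.13% and 2.67% of all genes. Under I-BET151, Nuak2 alone rose and none fell, beside 0.262% and 0.870% of all genes. The median log2 change of the 81 was 0.04 under JQ1 and 0.05 under I-BET151. At an unadjusted p under 0.05 there were 22 of the 81 under JQ1 and 21 under I-BET151, beside 21.6% and 18.9% of all genes. These counts of calls rest on all 6 arrays, since without any 1 array no gene passed.

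None of the 26 measured scaffold, polarity and junction genes passed under either inhibitor; at an unadjusted p under 0.05 there were 4 under each. Nf2, which encodes the tumour suppressor merlin, had 502 and 413 in JQ1 buds, 489 and 471 in I-BET151 buds and 469 and 454 in DMSO buds. The groups overlapped for JQ1, and the log2 changes were -0.02 and 0.06. Crb2, an apical polarity gene singled out after its values were seen, had 231 and 199 in JQ1 buds, 222 and 181 in I-BET151 buds and 128 and 125 in DMSO buds. It stood at 1.70-fold and 1.58-fold without a call (limma adjusted p = 0.0545 and 0.103).

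Of the 21 genes of the core kinases, their adaptors and STRIPAK, a phosphatase complex that opposes MST, none passed under either inhibitor, and 2 and 4 had an unadjusted p under 0.05 with JQ1 and I-BET151. The log2 change was above 0 for 17 of them under JQ1 and for 19 under I-BET151, where 13003 and 12617 of all 24010 genes were above 0. The medians were 0.11 and 0.10, against 0.02 and 0.00 over all genes. Stk4, an MST kinase gene, had log2 changes of 0.12 and 0.08. Sav1, the scaffold of MST, had 0.02 and 0.10. Lats1 was at 472 and 473 in JQ1 buds, 505 and 485 in I-BET151 buds and 443 and 440 in DMSO buds, so both treated groups lay above the controls by 1.07-fold and 1.12-fold without a call (limma adjusted p = 0.398 and 0.222). Stk38l, a kinase related to LATS and singled out after its values were seen, had 211 and 200, 173 and 217, and 130 and 120 in the same order, 1.64-fold and 1.55-fold over DMSO (limma adjusted p = 0.0571 and 0.105).

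The remaining TEAD genes and the VGLL cofactors, which compete with YAP for TEAD or bind it in its place, did not pass either (6 genes; 1 at an unadjusted p under 0.05 under each inhibitor, Tead2). Tead2 was at 1250 and 1292 in JQ1 buds, 1308 and 1239 in I-BET151 buds and 1480 and 1423 in DMSO buds. Both treated groups lay below the controls, with log2 changes of -0.19 ± 0.06 each (limma adjusted p = 0.180 and 0.217). Tead3 had log2 changes of 0.10 and -0.01, and Vgll4, a repressor of TEAD activity, 0.04 and 0.03. None of 5 relatives of Frmd6 in the FRMD family passed (2 and 1 had an unadjusted p under 0.05 under JQ1 and I-BET151), and their log2 changes ran from -0.29 to 0.22 under JQ1 and from -0.26 to 0.18 under I-BET151.

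**Figure D3:**
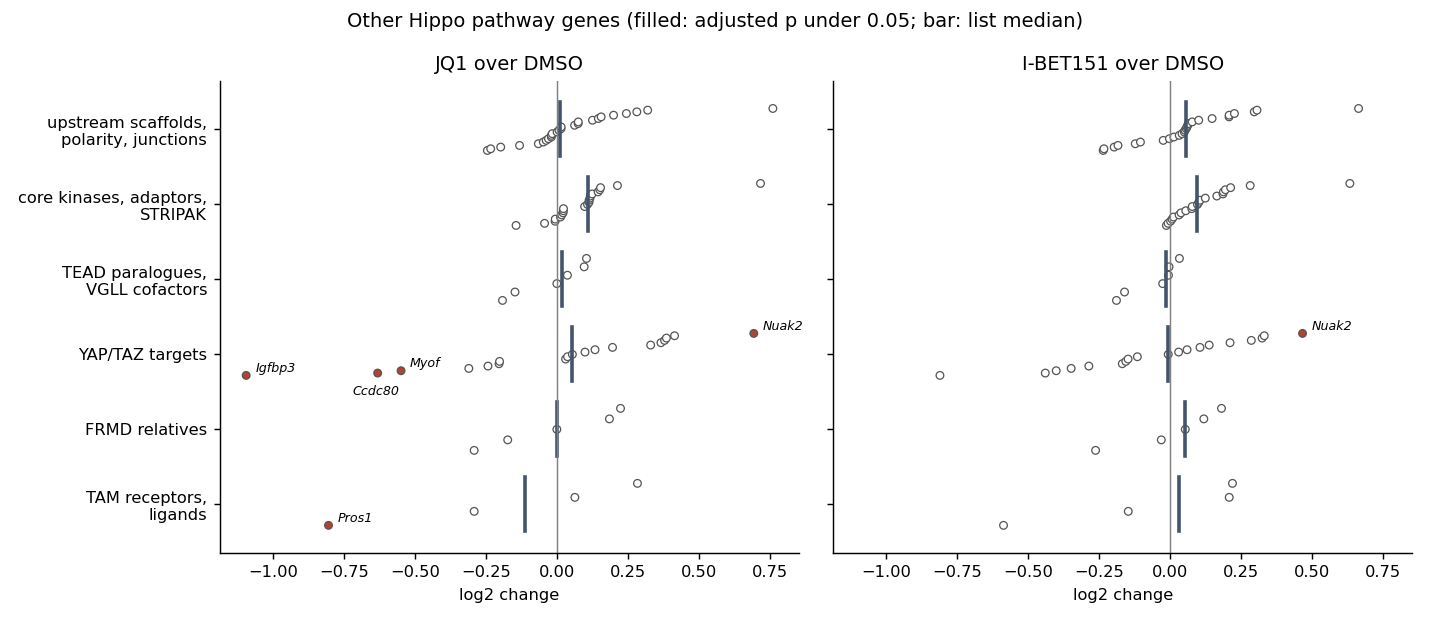
Log2 change against DMSO of the 81 other pathway genes in 6 lists, under JQ1 (left) and I-BET151 (right); each circle is a gene, filled where the adjusted p is under 0.05, and the bar is the list's median. Filled genes are Nuak2 on the right of 0 in both panels, and Igfbp3, Ccdc80, Myof and Pros1 on the left of 0 under JQ1.

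The target genes of YAP and TAZ did not move one way. Of 19 measured targets outside the members, 1 rose and 3 fell under JQ1, beside 1.13% and 2.67% of all genes, and 1 rose under I-BET151, beside 0.262%. At an unadjusted p under 0.05 in limma's fit there were 11 of the 19 under JQ1 and 9 under I-BET151, beside 21.6% and 18.9% of all genes, and the log2 changes were above 0 for 12 and 9 of them. Nuak2, a kinase gene induced by YAP, had 73 and 71 in JQ1 buds, 61 and 62 in I-BET151 buds and 44 and 45 in DMSO buds. It was dim, with DMSO values below the lowest array median (54.0). The groups were separate, and Nuak2 rose 1.62-fold under JQ1 (log2 0.69 ± 0.06, limma adjusted p = 0.0154) and 1.38-fold under I-BET151 (0.47 ± 0.06, limma adjusted p = 0.0474). The I-BET151 call was lost with an intensity trend in the prior (limma adjusted p = 0.066).

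The targets that fell under JQ1 encode secreted or membrane proteins. Igfbp3, an IGF-binding protein gene, had 741 and 810 in JQ1 buds, 852 and 1044 in I-BET151 buds and 1596 and 1716 in DMSO buds. It fell 2.14-fold under JQ1 (log2 -1.095 ± 0.12, limma adjusted p = 0.0249) and stood 1.75-fold lower under I-BET151 without a call (limma adjusted p = 0.0682). Ccdc80, which encodes a matrix protein, had 380 and 344, 421 and 405, and 581 and 540 in JQ1, I-BET151 and DMSO buds, and fell 1.55-fold under JQ1 (limma adjusted p = 0.0320). Myof, the gene of the membrane repair protein myoferlin, had 89 and 84, 94 and 105, and 127 and 126, and fell 1.46-fold under JQ1 (limma adjusted p = 0.0397). Each of these genes is also expressed by mesenchymal or endothelial cells, whose marker sums were lower too: 9 of 10 mesenchyme markers and 9 of 9 endothelial markers had a log2 change below 0 under JQ1. Their part in these falls was not tested.

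The best-known targets, Ccn1 and Ccn2, which encode matricellular proteins, and Ankrd1, a nuclear ankyrin-repeat protein, were not called against DMSO. Ccn1 had 361 and 375 in JQ1 buds, 258 and 257 in I-BET151 buds and 295 and 276 in DMSO buds. JQ1 buds lay above the controls and I-BET151 buds below them, with log2 changes of 0.37 ± 0.06 and -0.15 ± 0.06 (limma adjusted p = 0.0555 and 0.307). Ccn2 was dim, at 82 and 78, 67 and 72, and 61 and 59 in JQ1, I-BET151 and DMSO buds, with log2 changes of 0.41 and 0.21 (limma adjusted p = 0.0513 and 0.207). Ankrd1 was dimmer still, at 29 on both JQ1 arrays, 22 and 21 in I-BET151 buds and 31 and 26 in DMSO buds. Under JQ1 its range lay within that of the controls, and under I-BET151 it stood 1.32-fold lower (limma adjusted p = 0.143).

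Between the inhibitor groups, none of the 81 other pathway genes passed in limma's fit, and 4 had an unadjusted p under 0.05, against 6.71% of all genes. The 4 genes were Ccn1, Ccn2, Ankrd1 and Nuak2, each higher in JQ1 buds, a share of the 81 below that of all genes. All 4 were among the 19 measured YAP/TAZ targets, and the other lists held no such gene. Over these 19 targets the log2 difference was above 0 for 12 and below 0 for 7. Other targets differed the other way, with -0.28 for Igfbp3, -0.20 for Myof and -0.19 for Ccdc80 on the log2 scale. The Ccn1 difference was 0.51 on the log2 scale (95% interval 0.350 to 0.680) and that of Ankrd1 was 0.43 (0.172 to 0.692), both with a limma adjusted p of 0.718.

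Around Axl, the TAM receptor genes Tyro3 and Mertk had log2 changes of -0.29 and 0.06 under JQ1 and -0.15 and 0.21 under I-BET151. The ligand gene Gas6 had 0.28 and 0.22, and none of these 3 passed. Pros1, which encodes protein S, the other ligand of the family, had 145 and 135 in JQ1 buds, 153 and 173 in I-BET151 buds and 228 and 262 in DMSO buds. It fell 1.75-fold under JQ1 (log2 -0.80 ± 0.11, limma adjusted p = 0.0347) and stood 1.50-fold lower under I-BET151 without a call (limma adjusted p = 0.0914). Protein S is made in liver and endothelium. The sum of 7 liver markers was 1095 to 2781 in JQ1 buds, 1089 to 2358 in I-BET151 buds and 2808 to 3129 in DMSO buds. These markers did not move one way: under each inhibitor 3 had a log2 change above 0 and 4 below, and none was called. Serpina1b weighed heavily in the sum, at 485 and 668 in JQ1 buds, 476 and 805 in I-BET151 buds and 1482 and 1494 in DMSO buds. The part of liver or endothelial cells in the Pros1 value was not tested.

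**Figure D4:**
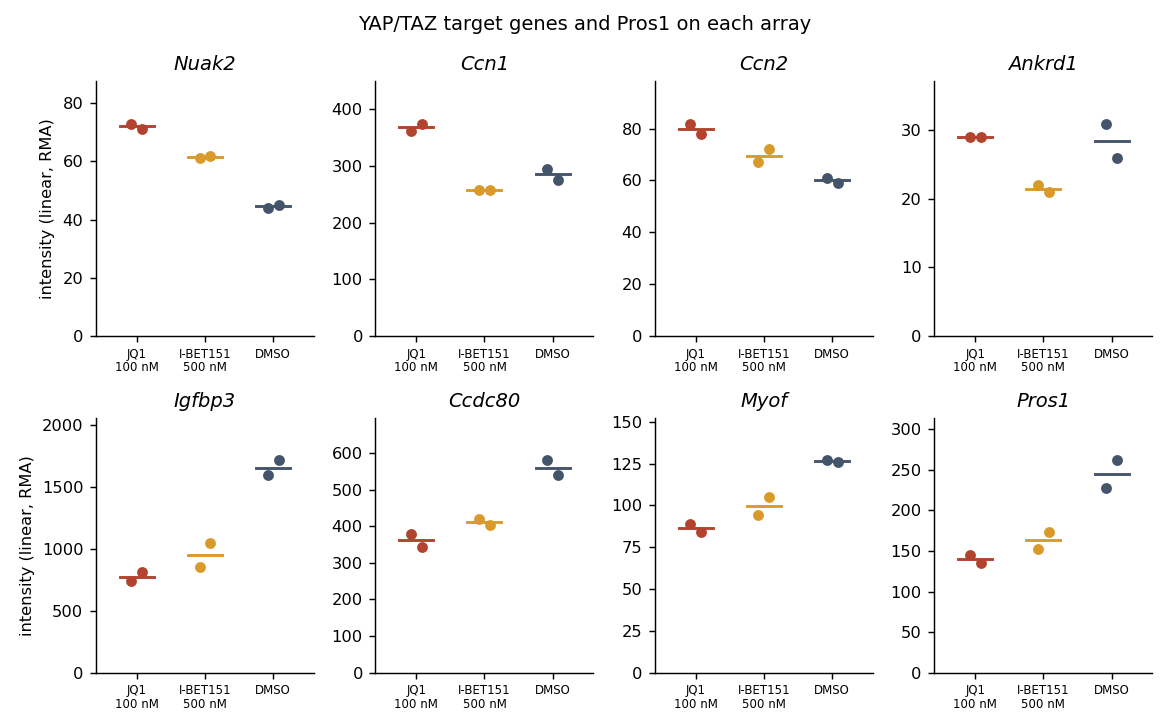
Intensity (linear scale, RMA) on each array of 7 YAP/TAZ target genes and of Pros1 in JQ1, I-BET151 and DMSO buds; points are arrays and lines are group means of 2 arrays. Nuak2 is highest in JQ1 buds, Igfbp3, Ccdc80, Myof and Pros1 are lowest there, and Ccn1 and Ankrd1 are lowest in I-BET151 buds.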

How the data were processed

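The 6 arrays hybridised biotin-labelled cDNA from total RNA. The deposited values are intensities, normalized by the authors with RMA, per the submitters' processing notes, on a linear scale and rounded to whole numbers from 5 upward. RMA forces equal distributions, so a change shared by most genes would not be seen, and no genome build or detection call is given in the sources used here.

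Of 24972 rows, 24014 had 1 gene symbol in the platform annotation and 958 had none and were not analysed here. Symbols were updated through Entrez IDs in the RefSeq table of GRCm38.p6 (23921 found), and for 4 symbols with several rows the brightest was kept, leaving 24010 genes. log2(intensity) was fitted in limma 3.58.1 (R 4.3.3; lmFit, eBayes) over all 6 arrays, with 3 residual and 1.76 prior degrees of freedom. P-values were adjusted by Benjamini-Hochberg over all genes, and genes under 0.05 were called. The fit was tested on simulated data. Depth has no equivalent on arrays, and 2 arrays per group limit the precision.

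The members and lists were chosen with earlier results of these data known. Named genes were all members, 12 pathway genes named whatever they did (1 had no named row and was not analysed here), every called list gene and the 5 profiles most like Frmd6. Marker lists also covered mesothelium, neural crest, macrophages and liver. Of 7 mesothelium, 6 neural crest and neuron, 6 macrophage and 7 liver markers, 1, 3, 0 and 0 fell under JQ1, 0, 2, 0 and 0 fell under I-BET151, and none rose under either. At an unadjusted p under 0.05 in limma's fit, in either direction, there were 4, 4, 2 and 2 under JQ1 in the same order. Under I-BET151 there were 2, 5, 1 and 2. Across all genes, same-numbered arrays did not deviate together from their group means (correlations of -0.016 to -0.040), so replicate numbers were not used as pairs. The liver markers differed from this: each was higher in replicate 2 than in replicate 1 in both inhibitor groups. In DMSO buds Alb, Afp, Apoa1, Apob, Fgb and Trf were lower in replicate 2, while Serpina1b was at 1482 and 1494.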

Additional observations from a re-analysis of the deposited data

How the results depend on the processing

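Alternatives were median centring of each array, leaving out genes below the median intensity, an intensity trend or a robust form of the prior, log2(intensity + 16), the replicate number as a block, and leaving out each array. No called change of a named gene turned its sign under any of them, and no gene of either set was called between JQ1 and I-BET151. Only centring, the pseudocount and leaving out an array of the compared groups can alter a log2 change, so the other settings could not turn a sign. The number of calls depended on the setting. For centring, the filter, the trend, the robust prior and the pseudocount, the share of all genes called is not given here. Changes in the counts below are therefore not read as a result about the pathway. Among the 81 other genes, 5 were called under JQ1; centring gave 10, the intensity filter 15 (of 72 kept), the trend 9, the robust prior 8 and the pseudocount 12. For I-BET151, where 1 was called, centring, the robust prior and the pseudocount gave 2 each and the filter 8. With the trend the count stayed at 1, but Igfbp3 replaced Nuak2. Among the members under JQ1 (2 called), the filter, trend and pseudocount gave 4 each, adding Ajuba and Amotl2, and the robust prior 1, without Axl. Centring gave 3, Frmd6, Ajuba and Amotl2, also without Axl. The replicate block is a pairing that the arrays do not bear out across all genes. With it, 0 were called in each set under either inhibitor, as in the whole table.

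With any of the 6 arrays left out (replicate 1 or 2 of JQ1, of I-BET151 or of CTRL), 0 genes were called in any comparison; the lone array of a group is then assumed to vary like the others. An added setting, chosen after seeing the data, left out 1 array and the genes below the median intensity together. It called 6 to 14 of the other genes under JQ1 and 0 to 6 under I-BET151, the 0 being without CTRL 2. The filter was set on the mean of all 6 arrays, including the one left out, and the share of all genes called is not given here. For Frmd6, log2 changes in these fits ran from 1.19 to 1.27 under JQ1 and from 0.78 to 0.92 under I-BET151. Nothing is read from these Frmd6 values, because these contrasts chose the members. Dim genes such as Ankrd1 move in coarse steps because values are rounded.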
